A study of Gallus gallus with 24 samples.

Results

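The comparison described here sets the response of cultured retinal pigment epithelium (RPE) to fibroblast growth factor 2 (FGF2) at 48 h against the response at 24 h. For each gene it takes FGF2 minus control at 48 h, and subtracts FGF2 minus control at 24 h. The difference is positive where FGF2 raised a gene more, or lowered it less, at the later time. It rests on 12 of the 24 libraries of the series and on 15001 of 24356 genes in the deposited table, those with a mean of at least 10 normalized counts over all 24 libraries. FGF2 explants received FGF2 at 10 ng/ml for 48 or 24 h, and control explants received plain medium for the same time. All were RPE of chicken embryos at embryonic day 4, and each library pooled 3 explants, with 3 biological replicates a group. The other 12 libraries repeat the design in medium with 20 mM dichloroacetate (DCA), an inhibitor of pyruvate dehydrogenase kinases.

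FGF2 is a secreted ligand that binds FGF receptors at the cell surface and activates the ERK kinase cascade. Early in a response ERK switches on transcription factors and its own feedback inhibitors. In the embryonic chick eye, FGF2 can turn RPE, the pigmented layer behind the retina, into neural retina, a change in which pigment genes go down and retinal progenitor genes go up. The contrast asks which genes respond early, which respond late, and which hold the same response at both times.

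The 12 libraries held 33933499 to 72724381 reads assigned to genes, with a median of 37457750, and 10 of them held at most 47066340. The 2 deepest were replicate 3 of FGF2 at each time. Pairs of replicates correlated at a Pearson r of 0.9665 to 0.9804 across genes. The labelled tissue showed its markers. The 14 defining RPE markers, among them the melanosome protein PMEL and the melanin enzyme TYR, were above 0 in every control library, with LRAT, which stores retinoid as an ester, lowest at 30.3, 32.8 and 35.8 normalized counts at 48 h and 35.2, 39.4 and 48.2 at 24 h. Markers of mesenchyme, endothelium, blood and macrophages were present too. In bulk tissue of this kind, fewer cells of a type and less RNA per cell cannot be told apart.

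The FGF2 effect differed between the times in 4524 genes, 30.2% of those tested, at a limma adjusted p under 0.05. It was more positive at 48 h in 2208 genes (14.7%) and more negative in 2316 (15.4%), and the difference reached 2-fold in 1492 (9.95%). FGF2 and control explants differed in 8187 genes (54.6%) at 48 h and in 4466 (29.8%) at 24 h. Differences and effects are on the log2 scale of the normalized count plus 1, which understates the change of genes with low counts, and the value after ± is the SE of the limma fit.

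The 6 response classes were formed from these 3 tests, named by the direction of the FGF2 effect. A late gene passed at 48 h and not at 24 h, with a difference of the same sign that also passed. That held for 1253 higher genes (8.35% of those tested) and 1140 lower ones (7.6%). A growing gene passed in the same direction at both times and moved further by 48 h, as in 628 higher (4.19%) and 538 lower genes (3.59%). A sustained gene passed in the same direction at both times with no call of a difference, as in 812 higher (5.41%) and 1040 lower genes (6.93%). Of these, 397 higher and 395 lower genes had a 95% interval of the difference within 1.5-fold either way, so that a larger shift lay outside the interval. The other sustained genes were not shown to be equal at the 2 times.

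Weakening responses were fewer. A waning gene passed at both times but by less at 48 h, as in 87 higher (0.58%) and 42 lower genes (0.28%). A transient gene passed at 24 h and no longer at 48 h, with a difference that passed, as in 317 higher (2.11%) and 156 lower genes (1.04%). An opposed gene passed in opposite directions at the 2 times, with 77 higher at 48 h (0.513%) and 198 lower (1.32%). A further 1179 higher (7.86%) and 1193 lower genes (7.95%) passed at 48 h alone, and 280 higher (1.87%) and 291 lower genes (1.94%) at 24 h alone, with no call of a difference, so their timing was not resolved. In 52 genes with a positive difference (0.347%) and 36 with a negative one (0.24%), the difference passed in no such pattern.

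**Figure D1:**
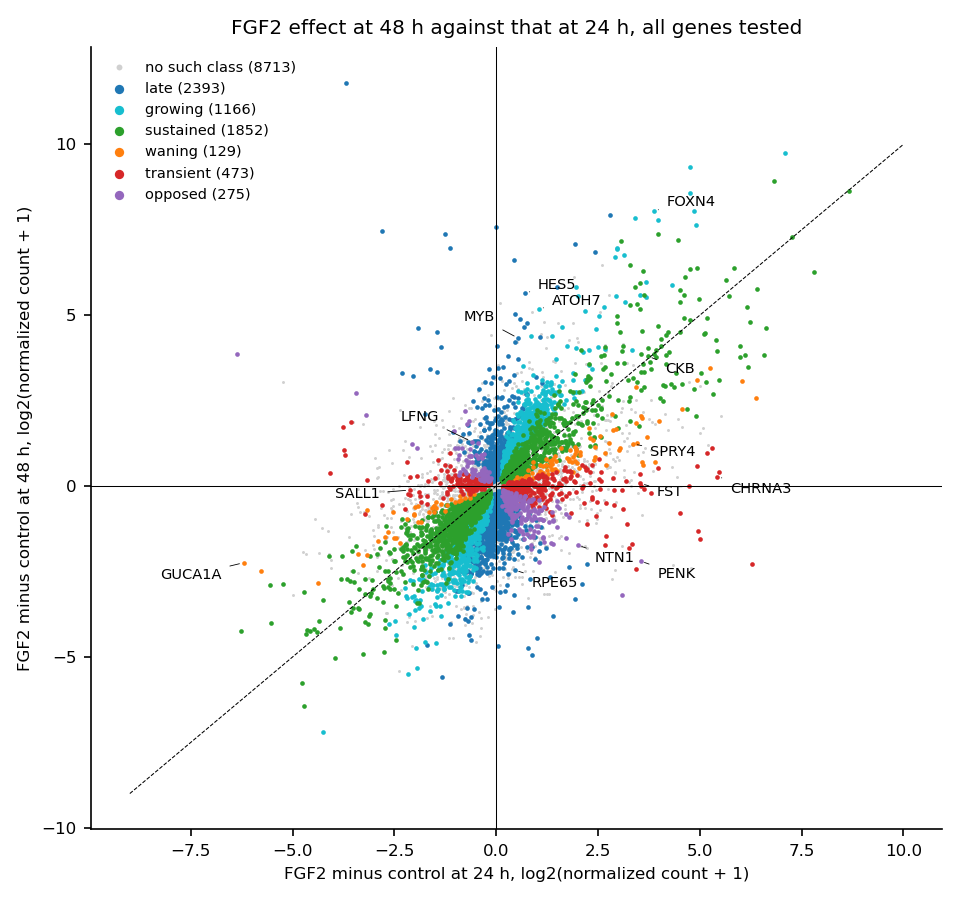
FGF2 minus control at 48 h (y axis) against that at 24 h (x axis) for the 15001 genes tested, both in log2 of the normalized count plus 1. Each point is 1 gene, coloured by response class with its number, and the dashed line marks equal effects. Late genes lie along the y axis, transient genes along the x axis, and sustained genes near the dashed line.

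A difference between effects can come from FGF2 explants, from control explants or from both. FGF2 explants changed between 24 and 48 h in 5626 genes (37.5%), up in 2896 (19.3%) and down in 2730 (18.2%). Control explants changed in 2549 (17%), up in 1454 (9.69%) and down in 1095 (7.3%). Among the 2208 genes with a positive difference, 1415 (64.1%) were called as changed over time in FGF2 explants alone and 295 (13.4%) in control explants alone. A further 256 (11.6%) were called in both in opposite directions, 48 (2.17%) in both in the same direction and 194 (8.79%) in neither. Among the 2316 with a negative difference, the numbers in that order were 1365 (58.9%), 415 (17.9%), 287 (12.4%), 97 (4.19%) and 152 (6.56%). A group without a call was not shown to be unchanged. Genes for mitosis, kinetochore and spindle had a median change over time of 0.96 in FGF2 explants and -0.02 in control explants. Genes of sterol and fatty acid synthesis had 0.39 in FGF2 explants and -0.43 in control explants, so that both sides contributed.

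**Figure D2:**
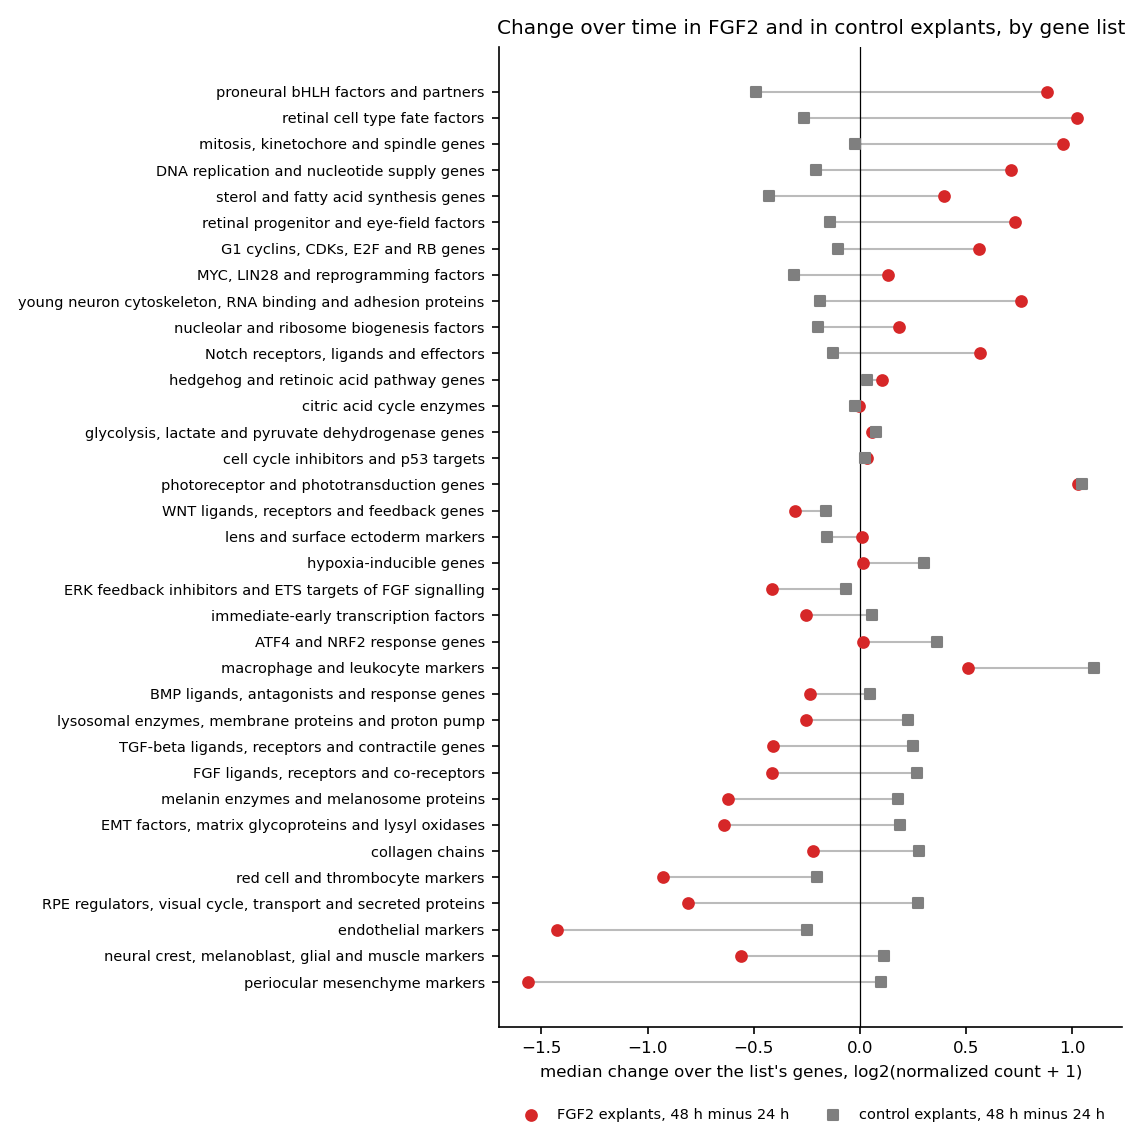
Median change from 24 to 48 h over the genes of each of 35 lists, in log2 of the normalized count plus 1, in FGF2 explants (red circles) and control explants (grey squares). Lists are ordered from the most positive median difference of effects at the top to the most negative at the bottom. The red circle lies to the right of the grey square for lists of neurogenesis, cell division and sterol synthesis, and to the left for RPE, mesenchyme and endothelium.

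Neighbouring cells signal through Notch receptors to hold some of them as progenitors, while proneural factors drive others to become neurons. Over all genes tested the difference was positive in 14.7% and negative in 15.4%, and the counts of every list below stand against those shares. Class counts of the lists stand against the class shares of all genes tested, given above. Of 16 proneural factors and partners tested, the difference was positive in 9 and negative in 0, with a median of 1.23 against -0.002 over all genes tested. Their median FGF2 effect was 0.63 at 48 h and -0.43 at 24 h. Over time 9 of the 16 rose in FGF2 explants and 7 fell in control explants. Of 23 Notch receptors, ligands and effectors, the difference was positive in 11 (47.8%) and negative in 3 (13%). The Notch target HES5, a repressor of proneural genes, had 5084, 5687 and 4666 normalized counts in FGF2 explants at 48 h, against 79.8, 75.6 and 169.9 in control explants. It had 242, 127 and 169 in FGF2 explants at 24 h, against 133, 78.8 and 109.99 in control explants. The libraries of the 2 groups overlapped at 24 h, and at 48 h every FGF2 library was far above every control library. HES5 had a difference of 4.94 ± 0.48 (limma adjusted p = 2.3e-07), and it changed by 4.88 ± 0.34 over time in FGF2 explants and by -0.06 ± 0.34 in control explants.

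The receptor NOTCH1 was late too, with 17451, 15442 and 15118 normalized counts in FGF2 explants at 48 h, against 5778, 5859 and 5973 in control explants. It had 6515, 7845 and 6491 in FGF2 explants at 24 h, against 7857, 8454 and 7611 in control explants, where the groups overlapped, and the difference was 1.65 ± 0.15 (adjusted p = 1.8e-07). Unlike HES5, NOTCH1 also fell over time in control explants, by -0.44 ± 0.11 (adjusted p = 0.0077), while FGF2 explants changed by 1.21 ± 0.11. HES6, which promotes neuronal differentiation, and OLIG2, a bHLH factor of progenitors, were late as well, with differences of 2.08 ± 0.20 and 2.76 ± 0.32. For HES6 every FGF2 library was already above control at 24 h, by 0.26 ± 0.14, without a call (adjusted p = 0.18). For OLIG2 the larger part lay in control explants, which changed by -1.96 ± 0.23 over time, while FGF2 explants changed by 0.79 ± 0.23. The FGF2 libraries held 1263, 1099 and 1002 normalized counts of OLIG2 at 48 h and the control libraries 115, 112 and 181. At 24 h they held 599, 656 and 679 in FGF2 and 430.1, 553 and 591 in control libraries, apart in every library but not past the test (adjusted p = 0.34).

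Other genes of neurogenesis and Notch signalling had responded by 24 h and went further. ATOH7, the proneural factor needed for retinal ganglion cells, had 3176, 3481 and 2809.6 normalized counts in FGF2 explants at 48 h, against 56.6, 99.4 and 109.5 in control explants. It had 933, 1109 and 654 in FGF2 explants at 24 h, against 374, 472 and 424 in control explants. FGF2 libraries stood above control at both times, with a change over time of 1.84 ± 0.29 in FGF2 explants and -2.29 ± 0.29 in control explants. The difference was 4.13 ± 0.41 (adjusted p = 3.2e-07). FOXN4, a factor of amacrine and horizontal cell precursors, was counted with the retinal cell type factors below. It had 3186, 3299 and 3075 normalized counts in FGF2 explants at 48 h, against 10.1, 14 and 9.21 in control explants, and a difference of 4.18 ± 0.44. The Notch ligand DLL1, carried by new neurons, had an effect of 3.51 ± 0.18 at 48 h and 0.66 ± 0.18 at 24 h (difference adjusted p = 8.2e-08).

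Still other genes of these kinds took different courses. LFNG, a glycosyltransferase that tunes Notch receptors, had 22674, 20543 and 20679 normalized counts in FGF2 explants at 48 h, against 8022, 9646 and 8324 in control explants. It had 6239, 6399 and 6117 in FGF2 explants at 24 h, against 8719, 9595 and 10228 in control explants. FGF2 libraries were all above control at 48 h and all below it at 24 h. The effect was 1.30 ± 0.08 at 48 h and -0.60 ± 0.08 at 24 h, a difference of 1.90 ± 0.11 (adjusted p = 1.1e-09). The Notch ligand JAG1 went the other way and was growing lower, with -2.36 ± 0.17 at 48 h and -1.14 ± 0.17 at 24 h. NEUROD1, a factor of photoreceptor and amacrine precursors, was transient, with 0.07 ± 0.15 at 48 h (adjusted p = 0.73) and -0.97 ± 0.15 at 24 h. Here control explants changed by -0.91 ± 0.15 over time, and FGF2 explants by 0.13 ± 0.15 (adjusted p = 0.54).

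Among 30 genes of young neurons, the difference was positive in 10 (33.3%) and negative in 3 (10%), against 14.7% and 15.4% of all genes tested. DCX, a microtubule protein of migrating neurons, had 2875, 2629 and 3088 normalized counts in FGF2 explants at 48 h, against 91, 92.8 and 87 in control explants. It had 892, 542 and 671 in FGF2 explants at 24 h, against 131, 111 and 113 in control explants, with the FGF2 libraries above control at both times. The adhesion molecule NCAM1 was growing, with effects of 3.24 ± 0.20 at 48 h and 0.91 ± 0.20 at 24 h. ELAVL4, a neuronal RNA-binding protein, was late, with a difference of 1.57 ± 0.18, of which -1.04 ± 0.13 was the change in control explants and 0.54 ± 0.13 that in FGF2 explants. STMN2, a tubulin-binding protein of growing axons, was listed at 0 in the 3 control libraries at 24 h and held 352, 152 and 203 in the FGF2 libraries. At 48 h it held 1185, 808 and 865 in FGF2 and 37.4, 45.2 and 0 in control libraries, and no call of a difference was made (adjusted p = 0.38). The difference was negative, a smaller effect at 48 h, at -3.32 to -0.55 with 1 library at a time left out. Its size depends on the pseudocount, because all 3 control libraries at 24 h are listed at 0. The difference did pass, with the same sign, without control replicate 3 at 48 h, the one listed at 0. With edgeR or DESeq2 on recovered reads of all libraries it passed too. Of 28 retinal cell type factors, the difference was positive in 10 (35.7%) and negative in 6 (21.4%), and without the 2 deepest libraries it was positive in 5.

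**Figure D3:**
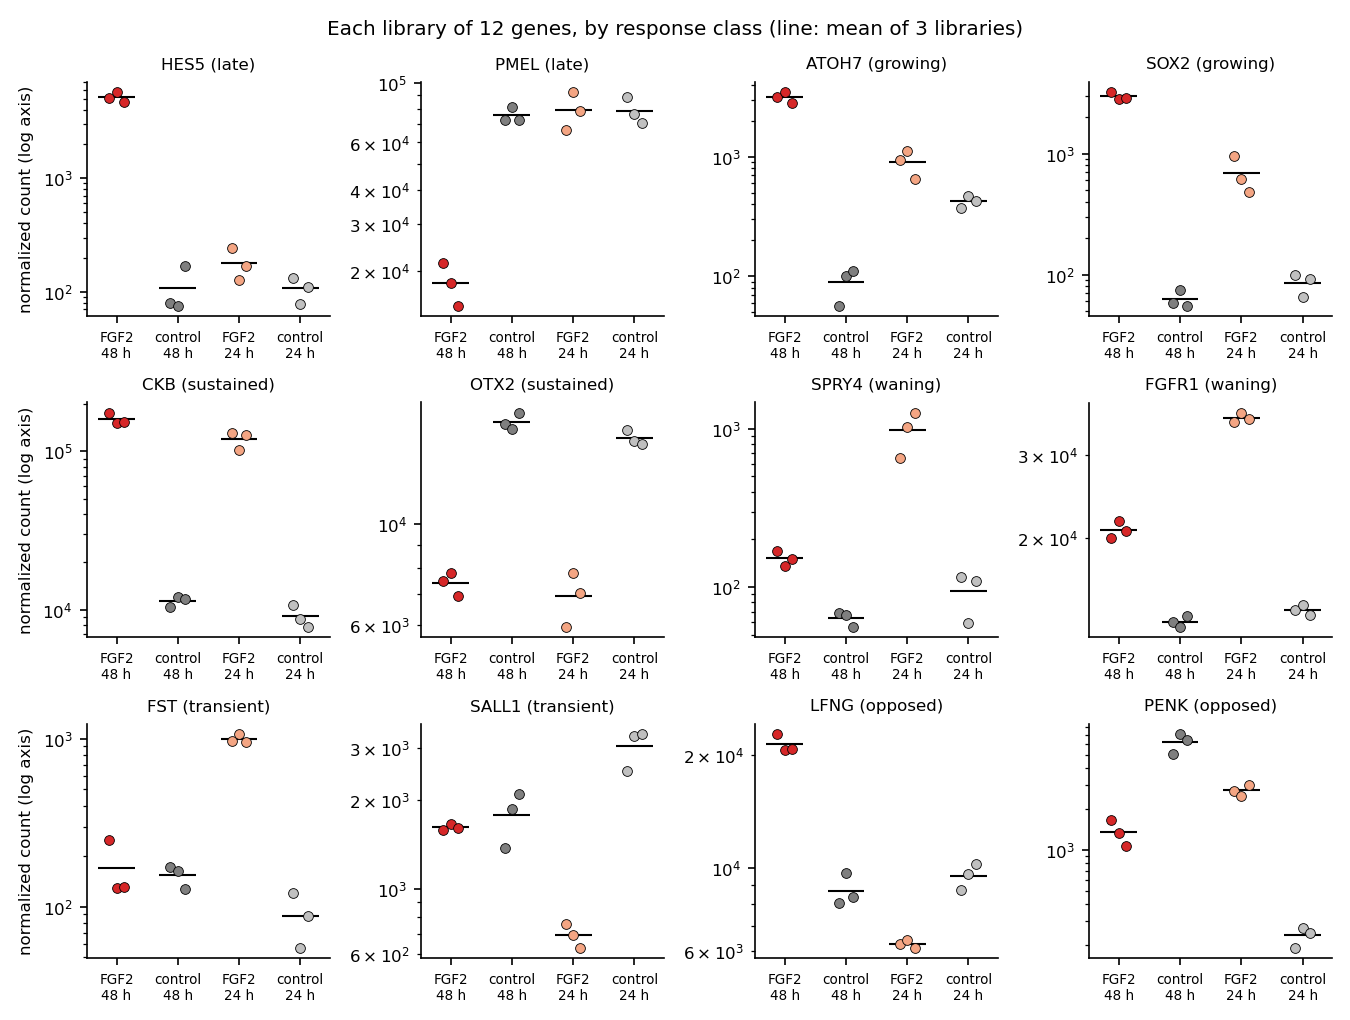
Normalized count (y axis, log scale) of each of the 12 libraries for 12 genes, 2 from each response class, with FGF2 at 48 h, control at 48 h, FGF2 at 24 h and control at 24 h from left to right. Points are libraries and lines are means of 3. HES5 and PMEL separate at 48 h, CKB and OTX2 separate alike at both times, FST and SALL1 separate at 24 h, and LFNG and PENK turn round.

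Eye-field and progenitor factors were most often growing or sustained. Of 28 tested, 4 were late, 9 growing, 6 sustained and 2 waning in the higher direction, and 2 were late and 2 transient in the lower. Over all genes tested those shares were 8.35%, 4.19%, 5.41% and 0.58% in the higher direction, and 7.6% and 1.04% in the lower. The difference was positive in 15 (53.6%) and negative in 4 (14.3%), or in 12 and 2 without the 2 deepest libraries. The stem cell factor SOX2 had 3217, 2848 and 2883 normalized counts in FGF2 explants at 48 h, against 58.6, 73.9 and 55.3 in control explants. It had 953, 619.5 and 482 in FGF2 explants at 24 h, against 99.3, 65.3 and 92.2 in control explants, and the gap widened by 2.61 ± 0.36 (adjusted p = 1.5e-05). SIX3 had an effect of 2.13 ± 0.12 at 48 h and 0.73 ± 0.12 at 24 h, RAX2 had 2.97 ± 0.16 at 48 h and 1.32 ± 0.16 at 24 h, and PAX6 had 1.94 ± 0.16 at 48 h and 1.09 ± 0.16 at 24 h. All 3 are homeobox factors of the early eye, and each difference passed (adjusted p = 0.0065 or less).

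The eye-field factor SIX6 was at 30142, 28770.4 and 27114 in FGF2 explants at 48 h and 3672, 4087 and 3839 in control explants. It was at 24151, 24789 and 22717 in FGF2 explants at 24 h and 2255, 2176 and 2243 in control explants. Its level in FGF2 explants was not called as changed over time (0.26 ± 0.13, adjusted p = 0.11) and that in control explants rose (0.80 ± 0.13), which gave a waning effect of -0.53 ± 0.18. That call was lost without FGF2 replicate 3 at 48 h (-0.49), control replicate 2 at 48 h (-0.49), FGF2 replicate 2 at 24 h (-0.51) or control replicate 2 at 24 h (-0.52), and without the 2 deepest libraries together (-0.53). The retinal homeobox factor RAX was higher at both times, by 1.93 ± 0.26 at 48 h and 1.23 ± 0.26 at 24 h, with no call of a difference (adjusted p = 0.15). SOX3, a relative of SOX2, was sustained too, with 4.45 ± 0.39 and 5.11 ± 0.39 and an interval of the difference from -1.82 to 0.49. SOX9, a factor of progenitors and Müller glia, was transient, with 0.09 ± 0.19 at 48 h (adjusted p = 0.72) and -1.39 ± 0.19 at 24 h. SALL1, a zinc-finger factor, was counted with the reprogramming factors below and was transient as well. It had 1588, 1659 and 1603 normalized counts in FGF2 explants at 48 h, against 1372, 1867 and 2102 in control explants. It had 761, 698 and 630.3 in FGF2 explants at 24 h, against 2514, 3302 and 3354 in control explants, with the groups apart at 24 h and overlapping at 48 h.

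Pigment genes were lower in FGF2 explants, some late and some by 24 h. Of 29 genes for melanin enzymes and melanosome proteins, the difference was negative in 17 and positive in 0, with a median of -0.69. As classes, 10 were late, 6 growing and 3 sustained in the lower direction, and 0 were late, growing or sustained in the higher. PMEL, which forms the fibrils of the melanosome, had 21351, 18059.8 and 14862 normalized counts in FGF2 explants at 48 h, against 72839, 81446 and 72467 in control explants. It had 66999.99, 92249 and 78309.6 in FGF2 explants at 24 h, against 88425, 76760.1 and 71121 in control explants. The groups overlapped at 24 h and were fully apart at 48 h. The difference was -2.08 ± 0.25 (adjusted p = 3.4e-06), and FGF2 explants changed by -2.13 ± 0.18 over time, control explants by -0.06 ± 0.18.

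Tyrosinase (TYR), the rate-limiting enzyme of melanin synthesis, had already been lowered at 24 h. It had 4279, 4352 and 3369.6 normalized counts in FGF2 explants at 48 h, against 28142, 28562 and 25307 in control explants. It had 8368, 11459.6 and 10106 in FGF2 explants at 24 h, against 17589, 16848 and 16566 in control explants, and the difference was -2.00 ± 0.33 (adjusted p = 0.00012). Its effect at 24 h, -0.78 ± 0.24, was -0.66 and no longer called without FGF2 replicate 1 of that time. The chloride channel OCA2 of the melanosome was late (-1.46 ± 0.15, adjusted p = 5.6e-07), as were the melanin enzymes DCT (-1.42 ± 0.27) and TYRP1 (-2.02 ± 0.37). In OCA2 and DCT every FGF2 library was already below control at 24 h, without a call. Their effects at that time were -0.24 ± 0.11 (adjusted p = 0.10) and -0.40 ± 0.19 (adjusted p = 0.13). For TYRP1 the effect at 24 h was 0.39 ± 0.26 (adjusted p = 0.29), and at 48 h it was -1.63 ± 0.26.

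Regulators of the RPE fell into different classes. OTX2, a homeobox factor needed for RPE identity, had 7506, 7800.1 and 6939 normalized counts in FGF2 explants at 48 h, against 16546, 16129 and 17501 in control explants. It had 5948, 7797 and 7061 in FGF2 explants at 24 h, against 16101, 15181 and 14996 in control explants. The FGF2 libraries lay below control by about the same step at both times, and the difference was -0.01 ± 0.11, with a 95% interval from -0.24 to 0.22. MITF, the main activator of pigment genes, had 915, 799.8 and 805 normalized counts in FGF2 explants at 48 h, against 1335, 1385 and 1129 in control explants. It had 1054, 942 and 1073 in FGF2 explants at 24 h, against 853, 715 and 874 in control explants, and so stood above control at 24 h and below it at 48 h, a difference of -0.94 ± 0.17 (adjusted p = 0.00027). Its effect of 0.33 ± 0.12 at 24 h was no longer called when replicate 1 or 3 of FGF2 or replicate 1 or 2 of control at that time was left out (0.31, 0.30, 0.37 and 0.24), or without the 2 deepest libraries together (0.30). The change over time was 0.66 ± 0.12 in control explants (adjusted p = 0.00067) and -0.28 ± 0.12 in FGF2 explants (adjusted p = 0.07).

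In the list of RPE regulators, visual cycle, transport and secreted proteins, the difference was negative in 18 of 31 genes and positive in 1, or 0 without the 2 deepest libraries. RPE65, the isomerase of the visual cycle, had 263, 188 and 157 normalized counts in FGF2 explants at 48 h, against 1222, 877 and 1219 in control explants. It had 902, 936 and 700.2 in FGF2 explants at 24 h, against 567, 792 and 509 in control explants, with overlapping groups at 24 h and separate ones at 48 h. The secreted neurotrophic factor SERPINF1 had 412, 409.9 and 378 normalized counts in FGF2 explants at 48 h, against 1624, 1569 and 1732 in control explants. It had 584, 776 and 759 in FGF2 explants at 24 h, against 608, 781 and 852 in control explants, and its difference of -1.96 ± 0.23 combined -0.81 ± 0.16 over time in FGF2 explants and 1.15 ± 0.16 in control explants. The opsin RGR (-1.56 ± 0.42) and the chloride channel BEST1 (-1.66 ± 0.38) were late too. For BEST1 every FGF2 library was already below control at 24 h, by -0.43 ± 0.27, without a call (adjusted p = 0.24). The amino acid transporter SLC6A15 and the retinol dehydrogenase RDH10 were sustained lower instead. Their effects were -2.77 ± 0.17 and -2.21 ± 0.13 at 48 h, and -2.65 ± 0.17 and -1.91 ± 0.13 at 24 h.

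Beside the pigment genes, markers of neural crest and its pigment-cell lineage moved as well. SOX10 was counted in the RPE list above too. SOX10, a factor of crest, melanoblasts and glia, had 3586, 2493 and 2448 normalized counts in FGF2 explants at 48 h, against 8738, 6994 and 7954 in control explants. It had 13597, 16304 and 17387 in FGF2 explants at 24 h, against 8927, 9099 and 7357 in control explants, a turn from higher to lower with a difference of -2.39 ± 0.34 (adjusted p = 2e-05). In the list of crest, melanoblast, glial and muscle markers the difference was negative in 11 of 26 genes and positive in 1. Their summed level ran over 137203 to 146968 normalized counts in FGF2 and 19020.2 to 25164 in control libraries at 48 h, and over 74561 to 86144 in FGF2 and 19199.6 to 22537 in control libraries at 24 h. Most of that sum in FGF2 libraries was FABP7, a fatty acid carrier of neural progenitors as well as glia, with 128188, 130634 and 139978 normalized counts in FGF2 explants at 48 h, against 3288, 4079 and 2329 in control explants. Without FABP7 the sum was 6603 to 9014 in FGF2 and 16691 to 21085 in control libraries at 48 h, and 22767 to 28074 in FGF2 and 14218 to 15577 in control libraries at 24 h. No marker of the list was at 0 in all 12 libraries. The summed level of the pigment list was 78928 to 99483 in FGF2 and 273521 to 302903 in control libraries at 48 h, and 184949 to 240154 in FGF2 and 228021 to 266087 in control libraries at 24 h. The part of crest cells in the pigment result was not tested.

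**Figure D4:**
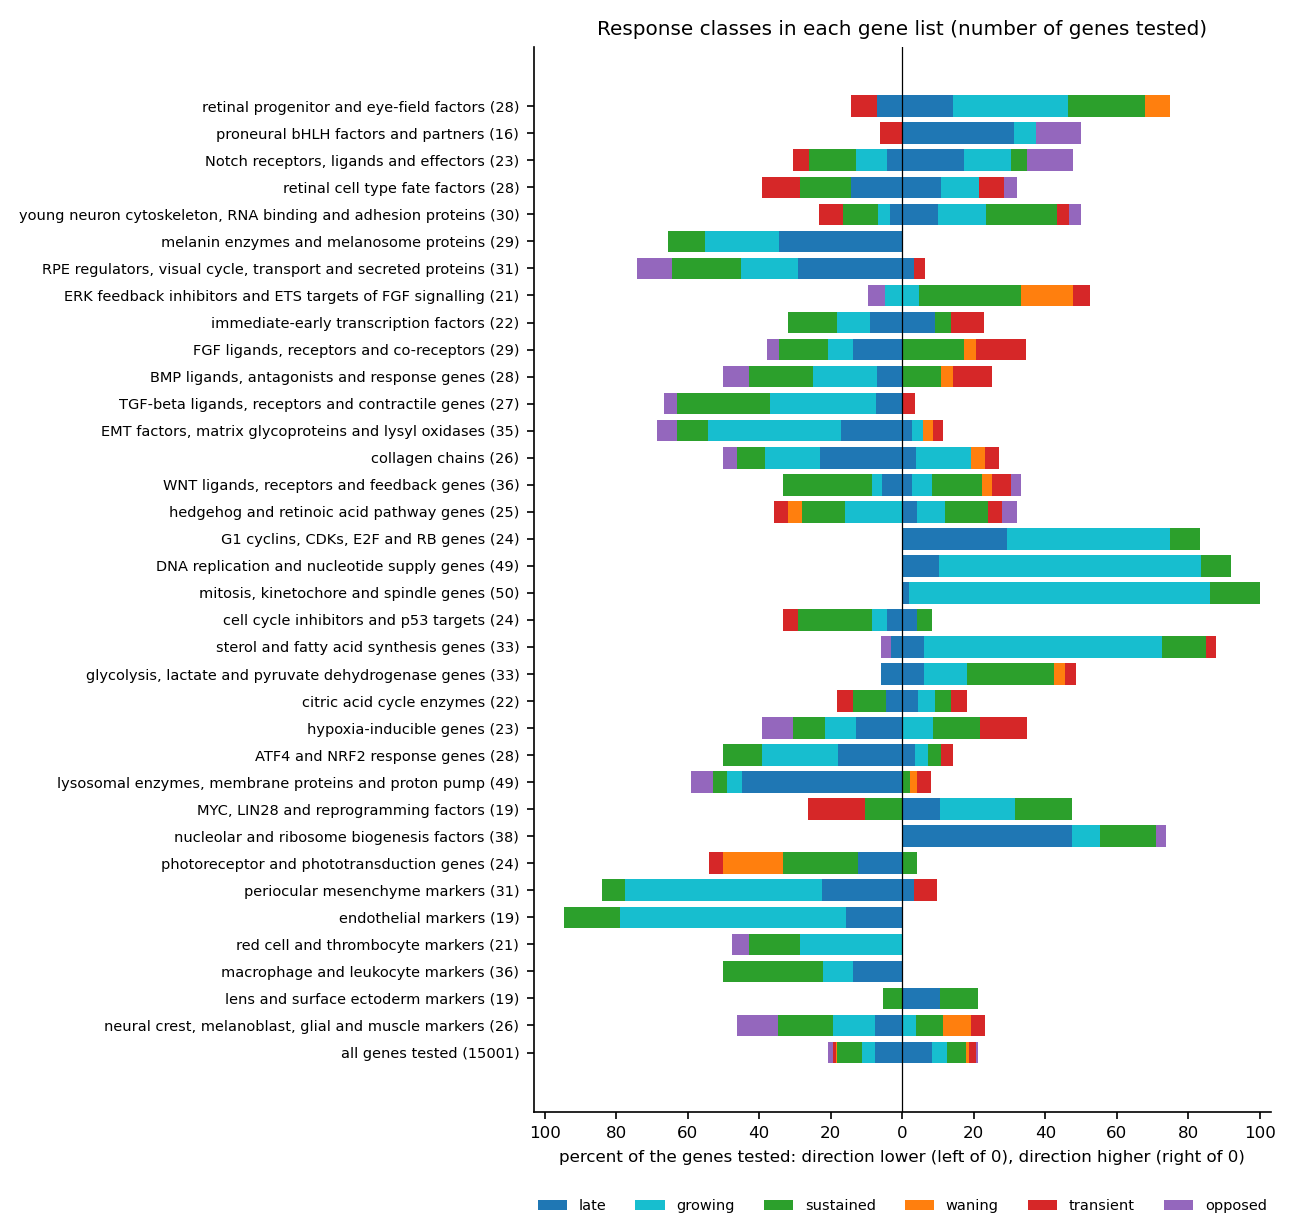
Percent of the tested genes of each list (number in brackets) in the 6 response classes, with the higher direction to the right of 0 and the lower direction to the left. Bars for cell division and sterol genes lie to the right and are mostly growing, those for pigment, lysosome, mesenchyme and endothelium lie to the left, and the bottom bar gives all genes tested.

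Feedback inhibitors and targets of FGF signalling took several courses. Of 21 tested, 6 were sustained, 3 waning, 1 transient and 1 growing in the higher direction, and 1 was growing and 1 opposed in the lower. A further 2 higher and 4 lower genes passed at 48 h alone with no call of a difference, and 0 met the definition of late. The difference was negative in 6 (28.6%) and positive in 1 (4.76%), or 0 without the 2 deepest libraries. Over all genes tested the shares were 15.4% and 14.7%. The ERK phosphatases DUSP4 and DUSP6 were sustained. DUSP4 had 1001, 772 and 911 normalized counts in FGF2 explants at 48 h, against 206, 218 and 219 in control explants. It had 1273, 1119 and 1177 in FGF2 explants at 24 h, against 292, 283 and 314 in control explants, and the difference was 0.05 ± 0.17 with an interval from -0.30 to 0.40. DUSP6 had an effect of 1.53 ± 0.14 at 48 h and 1.88 ± 0.14 at 24 h, and SPRY2, a feedback inhibitor of receptor kinases, had 1.51 ± 0.13 at 48 h and 1.34 ± 0.13 at 24 h. SPRY1 was sustained as well, with 1.30 ± 0.14 at 48 h and 1.62 ± 0.14 at 24 h. The interval of the difference was -0.21 to 0.55 for SPRY2, within 1.5-fold. For DUSP6 (-0.75 to 0.05) and SPRY1 (-0.74 to 0.09) it reached past 1.5-fold, so these 2 were not shown to be equal at both times.

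SPRY4, DUSP1 and ETV4 waned. SPRY4, another Sprouty inhibitor, had 169.8, 136 and 150.04 normalized counts in FGF2 explants at 48 h, against 68.7, 66.5 and 56.3 in control explants. It had 657, 1031 and 1252 in FGF2 explants at 24 h, against 115, 59.1 and 109.99 in control explants. FGF2 libraries were above control at both times, and higher at 24 h than at 48 h, and the difference was -2.13 ± 0.43 (adjusted p = 0.00082). The ETS factor ETV4, a transcriptional target of FGF signalling, had an effect of 0.83 ± 0.11 at 48 h, against 1.74 ± 0.11 at 24 h (adjusted p = 0.0002). DUSP1, a phosphatase of MAP kinases, had 0.74 ± 0.13 at 48 h and 1.78 ± 0.13 at 24 h. DUSP5, a nuclear ERK phosphatase, turned round, with 3027, 2831 and 2829.9 normalized counts in FGF2 explants at 48 h, against 4888, 4113 and 5325 in control explants. It had 11304, 15199 and 13287 in FGF2 explants at 24 h, against 6500.4, 6462 and 5414 in control explants, a difference of -1.82 ± 0.18.

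Of 29 FGF ligands, receptors and co-receptors, the difference was negative in 12 and positive in 0. FGFR1 waned. It had 19956, 21749 and 20667 normalized counts in FGF2 explants at 48 h, against 13171, 12881 and 13569 in control explants, and 35331, 36951 and 35909.8 in FGF2 explants at 24 h, against 13954, 14312 and 13642 in control explants. The groups were apart at both times, by 0.65 ± 0.07 at 48 h and 1.37 ± 0.07 at 24 h (difference adjusted p = 7.2e-06). FGFR2 was late and lower, with 1665, 1834 and 1682 normalized counts in FGF2 explants at 48 h, against 4858, 4173 and 4886 in control explants, and with 3666, 3718 and 3698 in FGF2 explants at 24 h, against 3593, 4374 and 3884 in control explants. FGF13, an intracellular FGF of neurons, was sustained, by 3.59 ± 0.36 at 48 h and 4.17 ± 0.36 at 24 h. FGF10, a ligand of mesenchyme and optic cup, was opposed, with effects of -1.19 ± 0.33 at 48 h and 1.5 ± 0.33 at 24 h, while control explants rose over time by 1.87 ± 0.33. FGF8 stayed under the level required for testing, with a mean of 2.21 normalized counts over 24 libraries.

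Immediate-early factors, which growth factors switch on within minutes, had negative median effects at both times. Of 22 tested, the median was -0.42 at 48 h and -0.16 at 24 h. The difference was negative in 6 (27.3%) and positive in 2 (9.09%), against 15.4% and 14.7% of all genes tested. EGR1 was late and lower, with 1196, 1104 and 1166 normalized counts in FGF2 explants at 48 h, against 2948, 2615 and 2527 in control explants, and with 1802, 2406 and 2365 in FGF2 explants at 24 h, against 2281, 2391 and 2450.2 in control explants. FOS was lower at 48 h (-1.0 ± 0.17) and at 24 h (-0.60 ± 0.17), with no call of a difference (adjusted p = 0.22). Without FGF2 replicate 1 at 24 h the effect of FOS at that time was -0.38 and not called, and its difference, -0.62, was called. NR4A3, a nuclear receptor, was late and lower (difference -2.27 ± 0.48), and JUND was late and higher (0.77 ± 0.11). NR4A3 had an effect of -1.46 ± 0.34 at 48 h. At 24 h every FGF2 library was above control, by 0.81 ± 0.34, without a call (adjusted p = 0.079). For JUND every FGF2 library was below control at 24 h, by -0.16 ± 0.08, without a call (adjusted p = 0.14). TRIB1, a pseudokinase, was transient, with -0.18 ± 0.15 at 48 h (adjusted p = 0.35) and 0.88 ± 0.15 at 24 h.

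Ligands, antagonists and response genes of BMP signalling, which favours RPE and dorsal eye fates, had a negative difference in 13 of 28 cases and a positive one in 1. BMP4 turned round, with 1179.95, 1338 and 1211 normalized counts in FGF2 explants at 48 h, against 2652, 2117 and 2116 in control explants. It had 1812, 2175 and 1799.9 in FGF2 explants at 24 h, against 1174, 1018 and 1124 in control explants. The change over time was -0.63 ± 0.17 in FGF2 explants and 1.05 ± 0.17 in control explants, and the difference was -1.68 ± 0.23 (adjusted p = 1.7e-05). BMP7, needed for early eye development, was sustained lower, with effects of -1.65 ± 0.12 at 48 h and -1.76 ± 0.12 at 24 h, with an interval of the difference from -0.23 to 0.45. BMP6, a relative of BMP7, had -2.71 ± 0.17 at 48 h and -3.23 ± 0.17 at 24 h, with no call of a difference (adjusted p = 0.12), although the difference of 0.52 was called in a fit of the 12 libraries alone. ID2, a target of BMP signalling, was late, with 4451, 4275 and 4134 normalized counts in FGF2 explants at 48 h, against 12614, 12564 and 12466 in control explants, and 11925, 11244 and 10737 in FGF2 explants at 24 h, against 9636, 10406 and 9868 in control explants.

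FST, which encodes the activin and BMP antagonist follistatin, was raised at 24 h and overlapped control by 48 h. It had 249, 129 and 130.3 normalized counts in FGF2 explants at 48 h, against 172, 163 and 127 in control explants. It had 974, 1064 and 956 in FGF2 explants at 24 h, against 121, 57 and 88 in control explants. The groups were separate at 24 h alone, and FGF2 explants changed by -2.62 ± 0.28 over time. BMPER, a secreted modulator of BMP, was transient too, but here the change lay in control explants, which rose by 3.20 ± 0.36 over time, while FGF2 explants changed by 0.20 ± 0.36 (adjusted p = 0.71). It had 219, 372 and 209 in FGF2 and 203, 278 and 377 in control libraries at 48 h, and 240.1, 286 and 163 in FGF2 and 37.4, 37.3 and 17.8 in control libraries at 24 h. NOG, which encodes the BMP antagonist noggin, was growing lower, with -2.15 ± 0.13 at 48 h and -1.14 ± 0.13 at 24 h.

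Of 27 TGF-beta ligands, receptors and contractile genes, the difference was negative in 12 and positive in 0, and negative in 7 without the 2 deepest libraries. The ligand TGFB2 was transient, with an effect of -0.01 ± 0.17 at 48 h and 0.93 ± 0.17 at 24 h (difference adjusted p = 0.0063). Its receptor TGFBR2 was growing lower, with -1.66 ± 0.14 at 48 h and -0.49 ± 0.14 at 24 h. Of 36 WNT ligands, receptors and feedback genes, 9 were sustained lower and 5 sustained higher, against 6.93% and 5.41% of all genes tested. The difference was negative in 6 (16.7%) and positive in 4 (11.1%), near the 15.4% and 14.7% of all genes tested. The ligand WNT2B, a marker of the ciliary margin and RPE, had -3.40 ± 0.30 at 48 h and -3.61 ± 0.30 at 24 h. The mediator TCF7 was late and higher (2.77 ± 0.44), and the receptor FZD3 was opposed, 1.26 ± 0.11 at 48 h and -0.44 ± 0.11 at 24 h.

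Of 25 hedgehog and retinoic acid genes, 6 (24%) had a positive and 5 (20%) a negative difference, against 14.7% and 15.4% of all genes tested. ALDH1A2, which makes retinoic acid, had 698, 672 and 639 normalized counts in FGF2 explants at 48 h, against 9115, 8092 and 7975 in control explants. It had 1892, 2509.8 and 2311 in FGF2 explants at 24 h, against 7336, 7758 and 5699.8 in control explants, and FGF2 explants changed by -1.73 ± 0.15 over time. CRABP2, which binds retinoic acid, was opposed. It had 1543, 1368 and 1453 in FGF2 and 782, 890.2 and 867 in control libraries at 48 h, and 1942, 1787 and 1641 in FGF2 and 3122, 3428 and 3828 in control libraries at 24 h, so that control explants changed by -2.03 ± 0.21 and FGF2 explants by -0.30 ± 0.21 (adjusted p = 0.28). The hedgehog co-receptor CDON was sustained, with 2.23 ± 0.12 at 48 h and 2.43 ± 0.12 at 24 h.

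Cell division genes grew as a block. Of 50 genes for mitosis, kinetochore and spindle, the difference was positive in 43 and negative in 0, with a median of 0.97, and 42 were growing and 7 sustained. All 50 rose over time in FGF2 explants, and in control explants 0 rose and 0 fell at an adjusted p under 0.05. Of 49 DNA replication and nucleotide genes, the difference was positive in 41 and negative in 0, and of 24 genes for G1 cyclins, CDKs, E2F and RB, in 18 and 0. E2F1, which switches on S-phase genes, had 6801, 6529 and 5892 normalized counts in FGF2 explants at 48 h, against 835, 806 and 745 in control explants. It had 1831, 2053 and 1653 in FGF2 explants at 24 h, against 1099, 1118 and 1060.1 in control explants. The groups were apart at both times and the gap was wider at 48 h, by 2.26 ± 0.16 (adjusted p = 1.3e-08). Cyclin D1 (CCND1), which carries mitogen signals into the cycle, had 3962, 3861 and 4250.1 normalized counts in FGF2 explants at 48 h, against 1282, 1207 and 1189 in control explants, and 1643, 1265 and 1466 in FGF2 explants at 24 h, against 1021, 1242 and 912 in control explants. The E2F partner TFDP1 and the DNA methyltransferase DNMT3B were growing too, with differences of 0.73 ± 0.09 and 1.59 ± 0.14. For DNMT3B the larger part lay in control explants, which changed by -1.08 ± 0.10 over time, while FGF2 explants changed by 0.50 ± 0.10.

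MYCN, a driver of progenitor growth, was late, with 2234, 2013 and 2168 normalized counts in FGF2 explants at 48 h, against 947, 888 and 816 in control explants. It had 1374, 1458 and 1282 in FGF2 explants at 24 h, against 1509, 1559 and 1345 in control explants, where the groups overlapped. Both sides contributed, with a change over time of 0.64 ± 0.125 in FGF2 explants and -0.735 ± 0.125 in control explants. Of 19 MYC, LIN28 and reprogramming factors tested, the difference was positive in 9 and negative in 0. LIN28A, an RNA-binding protein of stem cells, stayed under the level required for testing, with a mean of 2.27 normalized counts. MYB, a factor of dividing progenitors, was among the largest late gains. It had 1579, 1594 and 1520.2 normalized counts in FGF2 explants at 48 h, against 39.4, 87.9 and 129 in control explants. It had 197, 160.2 and 135 in FGF2 explants at 24 h, against 149, 64.3 and 146 in control explants, overlapping, and a difference of 3.80 ± 0.52 (adjusted p = 1.3e-05). Of 38 nucleolar and ribosome biogenesis factors, 18 were late, 3 growing and 6 sustained in the higher direction, and the difference was positive in 22 and negative in 0. Of 24 cell cycle inhibitors and p53 targets, it was positive in 2 (8.33%) and negative in 2 (8.33%), with a median of -0.01. Over all genes tested the shares were 14.7% and 15.4%.

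In metabolism, the lists took different courses. Of 33 genes for sterol and fatty acid synthesis, 22 were growing higher, and the difference was positive in 24 and negative in 3. Control explants lowered 22 of these genes over time, and FGF2 explants raised 24. NSDHL, an enzyme of cholesterol synthesis, had 3476, 3398 and 3699.9 normalized counts in FGF2 explants at 48 h, against 668, 569 and 624 in control explants. It had 2294, 1589.97 and 1629.6 in FGF2 explants at 24 h, against 1139.8, 1005 and 1106 in control explants, which gave a difference of 1.76 ± 0.21 (adjusted p = 3.2e-06), 0.96 ± 0.15 from FGF2 explants and -0.80 ± 0.15 from control explants. SREBF2, the factor that controls the pathway, had 1.28 ± 0.06 at 48 h and 0.67 ± 0.06 at 24 h, and the enzymes CYP51A1 and SQLE had differences of 1.48 ± 0.17 and 1.26 ± 0.18.

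Glycolysis and lactate genes had a median difference of 0.01. Of 33, 8 were sustained higher, against 5.41% of all genes tested. The difference was positive in 6 (18.2%) and negative in 4 (12.1%), near the 14.7% and 15.4% of all genes tested. Lactate dehydrogenase A (LDHA) had 209668, 234716 and 217070.3 normalized counts in FGF2 explants at 48 h, against 89555, 114012 and 92654 in control explants. It had 119434, 104184 and 157909 in FGF2 explants at 24 h, against 60986, 53356 and 62506 in control explants. Both groups rose over time, and the effect was 1.17 ± 0.12 at 48 h and 1.09 ± 0.12 at 24 h, with an interval of the difference from -0.28 to 0.43. LDHB, the subunit that favours lactate use, waned, with 0.45 ± 0.08 at 48 h and 1.08 ± 0.08 at 24 h (adjusted p = 0.00018). ENO1 and PGAM1, enzymes of lower glycolysis, grew, by 1.05 ± 0.11 and 0.45 ± 0.09. PDK4, the kinase that shuts pyruvate dehydrogenase, was late and lower (-0.90 ± 0.20). Every FGF2 library was already below control at 24 h, by -0.27 ± 0.145, without a call (adjusted p = 0.18). HK2, which traps glucose in the cell, and GAPDH, the glycolytic dehydrogenase, were sustained, with intervals of the difference from -0.11 to 0.56 for HK2 and from -0.20 to 0.21 for GAPDH. Brain creatine kinase (CKB) was sustained. It had 174180.2, 150011 and 152540.1 normalized counts in FGF2 explants at 48 h, against 10449.5, 11978 and 11749.6 in control explants, and 131517, 102522 and 126409 in FGF2 explants at 24 h, against 10649, 8745 and 7824 in control explants.

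Of 49 genes for lysosomal enzymes, membrane proteins and the proton pump, 22 were late and lower and 8 more passed lower at 48 h alone with no call of a difference. The difference was negative in 30 and positive in 0. Over time, 22 of them rose in control explants and 0 fell, while in FGF2 explants 3 rose and 27 fell. Of 23 hypoxia response genes the difference was negative in 10 (43.5%) and positive in 3 (13%). Of 22 citric acid cycle enzymes it was negative in 2 (9.09%) and positive in 3 (13.6%). Over all genes tested the shares were 15.4% negative and 14.7% positive. Of 28 ATF4 and NRF2 response genes, the difference was negative in 12 and positive in 2. HMOX1, which degrades haem, had 1742, 1758 and 1389 normalized counts in FGF2 explants at 48 h, against 6369, 6568 and 5888 in control explants. It had 3145, 3114 and 3866 in FGF2 explants at 24 h, against 4953, 4767 and 4653 in control explants, with the groups apart at both times and farther apart at 48 h. NQO1, a quinone reductase and NRF2 target, was late, with -1.48 ± 0.13 at 48 h and 0.02 ± 0.13 at 24 h (difference adjusted p = 5.4e-06).

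Matrix genes had more negative than positive differences. Of 35 genes for EMT factors, matrix glycoproteins and lysyl oxidases, the difference was negative in 24 and positive in 2, or 1 without the 2 deepest libraries. SNAI1, a repressor of epithelial genes, had 483, 524 and 493 normalized counts in FGF2 explants at 48 h, against 4149.9, 3636 and 3835 in control explants. It had 1839, 1889 and 1819 in FGF2 explants at 24 h, against 3161, 3885 and 3174 in control explants, and FGF2 explants changed by -1.89 ± 0.12 over time, control explants by 0.19 ± 0.12 (adjusted p = 0.31). Collagen chains went both ways, with a negative difference in 13 of 26 and a positive one in 5, or 3 without the 2 deepest libraries. COL3A1, a fibrillar collagen of mesenchyme, had 19866, 16934 and 17648 normalized counts in FGF2 explants at 48 h, against 200510.1, 154463 and 157156 in control explants. It had 25089, 34226 and 22641 in FGF2 explants at 24 h, against 59989, 51638 and 52306 in control explants. Control explants changed by 1.64 ± 0.20 over time and FGF2 explants by -0.57 ± 0.20, a difference of -2.21 ± 0.28. COL1A1, the main chain of fibrous collagen, was sustained lower, with effects of -1.39 ± 0.22 at 48 h and -0.91 ± 0.22 at 24 h, with no call of a difference (adjusted p = 0.26). COL2A1 and COL9A3, cartilage-type collagens that the embryonic neural retina also makes, were growing higher, with 2.77 ± 0.12 and 5.53 ± 0.24 at 48 h and 1.97 ± 0.12 and 3.68 ± 0.24 at 24 h.

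Of 31 markers of periocular mesenchyme, 17 were growing and 7 late in the lower direction, and the difference was negative in 26 and positive in 1, or 0 without the 2 deepest libraries. Their summed level was 94232 to 105094 normalized counts in FGF2 and 360548 to 422571 in control libraries at 48 h, and 107366 to 135678 in FGF2 and 184349 to 197591 in control libraries at 24 h. The sum in control explants was higher at 48 h than at 24 h, with no overlap, and COL3A1, given above, was a large part of it. Gene by gene, the median change over time was -1.56 in FGF2 explants and 0.10 in control explants. In FGF2 explants 2 markers rose and 23 fell, and in control explants 7 rose and 3 fell. No marker of this list, nor of the endothelial, blood and macrophage lists, was at 0 in all 12 libraries. TCF21, a factor of mesenchyme, was listed at 0 in the 3 FGF2 libraries at 48 h, against 151, 157 and 130.02 in control libraries, and had 4.27, 9.42 and 0 in FGF2 and 73.6, 59.1 and 84.9 in control libraries at 24 h. Decorin (DCN), a matrix proteoglycan, had 1845, 1972 and 1508 normalized counts in FGF2 explants at 48 h, against 16873, 13582 and 15112 in control explants, and 5937, 6659 and 5926 in FGF2 explants at 24 h, against 9194, 10815 and 10003 in control explants.

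Endothelial markers had a negative difference in 15 of 19 and a positive one in 0, and their sum was 13584 to 14904 in FGF2 and 49064 to 70674 in control libraries at 48 h, and 35194 to 44356 in FGF2 and 60013 to 69721 in control libraries at 24 h. CDH5, the cadherin of endothelial junctions, was late and lower (-1.95 ± 0.31, adjusted p = 5.9e-05). Every FGF2 library was already below control at 24 h, by -0.49 ± 0.22, without a call (adjusted p = 0.093). Red cell and thrombocyte markers were negative in 7 of 21 and positive in 0, with sums of 25746 to 39209 in FGF2 and 91819 to 134505 in control libraries at 48 h, and 119652 to 155811 in FGF2 and 153047 to 207227 in control libraries at 24 h. Of 36 macrophage and leukocyte markers, 10 were sustained lower, against 6.93% of all genes tested. The difference was negative in 8 (22.2%), against 15.4% of all genes tested, and in 3 without the 2 deepest libraries. These markers rose over time in both arms, 17 of 36 in FGF2 and 25 of 36 in control explants. Their sum was 20436 to 22875 in FGF2 and 45549.7 to 56939 in control libraries at 48 h, and 13056 to 16395 in FGF2 and 20377 to 24253 in control libraries at 24 h. Lens and surface ectoderm markers had a positive difference in 2 of 19 (10.5%), against 14.7% of all genes tested, and a negative one in 0. Without the 2 deepest libraries it was positive in 0. In all 12 libraries 1 of the list was at 0. The part of these cells in the differences of the pigment, matrix, lysosome and progenitor lists was not tested.

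The largest single differences included genes whose controls moved. PENK, the precursor of enkephalins, had 1675, 1346 and 1071 normalized counts in FGF2 explants at 48 h, against 5068, 7114 and 6440.4 in control explants. It had 2728, 2502 and 3010.3 in FGF2 explants at 24 h, against 192, 269.6 and 247 in control explants. FGF2 libraries were above control at 24 h and below it at 48 h, and the difference was -5.74 ± 0.36 (adjusted p = 1.4e-09). Control explants changed by 4.71 ± 0.26 over time and FGF2 explants by -1.03 ± 0.26. NTN1, the guidance molecule netrin, had 342, 475 and 416 normalized counts in FGF2 explants at 48 h, against 1305, 1346 and 1409.7 in control explants, and 1071, 1364 and 891 in FGF2 explants at 24 h, against 207, 308 and 315 in control explants. CHRNA3, a subunit of nicotinic acetylcholine receptors, had 171, 293 and 164 in FGF2 and 141, 237 and 137 in control libraries at 48 h, overlapping, and 269, 284 and 260.04 in FGF2 and 4.27, 10.4 and 3.14 in control libraries at 24 h. Its level in FGF2 explants was not called as changed over time (-0.42 ± 0.58, adjusted p = 0.61), and that in control explants rose by 4.74 ± 0.58.

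Other large differences were positive. PRSS56, a serine protease, had 2229.5, 2715 and 3445 normalized counts in FGF2 explants at 48 h, against 18.2, 27.1 and 19.5 in control explants. It had 230.5, 154 and 194 in FGF2 explants at 24 h, against 32, 11.4 and 35.6 in control explants, with FGF2 libraries above control at both times and a difference of 4.00 ± 0.62. ADAMTS18, a protease of the matrix, had 7424, 7592 and 8456 normalized counts in FGF2 explants at 48 h, against 1741, 1613 and 1709 in control explants. It had 1237, 841 and 968 in FGF2 explants at 24 h, against 1565, 1746 and 1863 in control explants, below control at 24 h and above it at 48 h. The ectoenzyme CD38 was late, with 2373, 2831 and 2556 in FGF2 and 253, 250.5 and 190.4 in control libraries at 48 h and overlapping levels at 24 h. ZNF750, a zinc-finger factor, was listed at 0 in all 6 control libraries, and had 538, 681 and 733 in FGF2 explants at 48 h and 39.5, 16.5 and 27.4 at 24 h. With controls at 0 the size of its effects depends on the pseudocount, and its difference was not called with edgeR on recovered reads. CRB1, an apical polarity protein of the retina, was opposed, with 1.60 ± 0.20 at 48 h and -1.03 ± 0.20 at 24 h. NOS1, a nitric oxide synthase, was sustained, with 680.4, 598 and 764 in FGF2 and 0, 0 and 4.09 in control libraries at 48 h, and 912, 787 and 775 in FGF2 and 0, 0 and 7.33 in control libraries at 24 h. With controls at or near 0 the size of its effects depends on the pseudocount too. The interval of its difference, from -2.55 to 2.46, was too wide to show equal effects.

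Waning falls were found among photoreceptor and phototransduction genes. Of 24 tested, 4 were waning, 5 sustained and 3 late in the lower direction, against 0.28%, 6.93% and 7.6% of all genes tested. The difference was positive in 5 (20.8%) and negative in 3 (12.5%), against 14.7% and 15.4% of all genes tested, with a median of -0.035. The median change over time was 1.02 in FGF2 and 1.05 in control explants. GUCA1A, a calcium sensor of photoreceptors, had 114, 75.5 and 109.9 normalized counts in FGF2 explants at 48 h, against 475, 557 and 390.05 in control explants. It had 0, 9.42 and 3.5 in FGF2 explants at 24 h, against 189, 375 and 264 in control explants, a difference of 3.96 ± 0.84 (adjusted p = 0.0011). The size of that difference depends on the pseudocount, because the FGF2 libraries at 24 h are at or near 0. With 1 library at a time left out it was 3.04 to 4.73. GNGT2, the cone transducin gamma subunit, had 1634, 2267 and 2027 normalized counts in FGF2 explants at 48 h, against 6939, 8129.97 and 9046 in control explants, and 378, 650.1 and 410.5 in FGF2 explants at 24 h, against 4667, 4909 and 3309 in control explants. In both genes FGF2 libraries were below control at both times and nearer to it, on the log2 scale, at 48 h. NR2E3, a nuclear receptor of photoreceptors, was transient, with -0.24 ± 0.24 at 48 h (adjusted p = 0.41) and -2.17 ± 0.24 at 24 h. ERBB3, a receptor kinase of crest and glial cells, waned in the higher direction. It had 277, 171 and 169.8 normalized counts in FGF2 explants at 48 h, against 33.4, 105 and 19.5 in control explants, and 1500.2, 1229.6 and 1867 in FGF2 explants at 24 h, against 89.6, 45.6 and 60.8 in control explants.

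The 12 libraries in DCA medium gave the same contrast from other group means, although all 24 libraries shared the level filter and the estimate of the spread. There the FGF2 effect differed between the times in 1372 genes, 9.15% of those tested. Of these, 880 were called with the same sign without DCA, which is 64.1% of the 1372 and 19.5% of the 4524, and 29 were called with the opposite sign. Of the 4524 genes, 3575 (79%) had the same sign in DCA medium, called or not. The same share over all genes tested was not computed. A direct test of whether the difference itself depended on DCA called 1028 genes (6.85%), 908 of them among the 4524. That test uses the difference without DCA, so its overlap with the 4524 is partly built in.

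Some of the genes described above kept their difference in DCA medium and others did not. PRSS56 had a difference of 4.53 ± 0.62 there and 4.00 ± 0.62 without DCA. HES5 had 2.01 ± 0.48 there and 4.94 ± 0.48 without DCA, and this gap passed the test (adjusted p = 0.012). MYB had -1.07 ± 0.52 in DCA medium (adjusted p = 0.21) and 3.80 ± 0.52 without (adjusted p of the gap 0.00063). LFNG had 0.11 ± 0.11 in DCA medium and 1.90 ± 0.11 without (adjusted p of the gap 3.4e-06). Among pigment genes, PMEL had -1.38 ± 0.25 in DCA medium and -2.08 ± 0.25 without, and the gap was not called (adjusted p = 0.27). RPE65 had -3.76 ± 0.52 and -2.92 ± 0.52 (adjusted p of the gap 0.56). Over lists, the median difference in DCA medium was 0.56 for mitosis genes, against 0.97 without DCA, -0.06 for sterol genes, against 0.79, -0.32 for pigment genes, against -0.69, and -0.44 for mesenchyme markers, against -1.40.

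**Figure D5:**
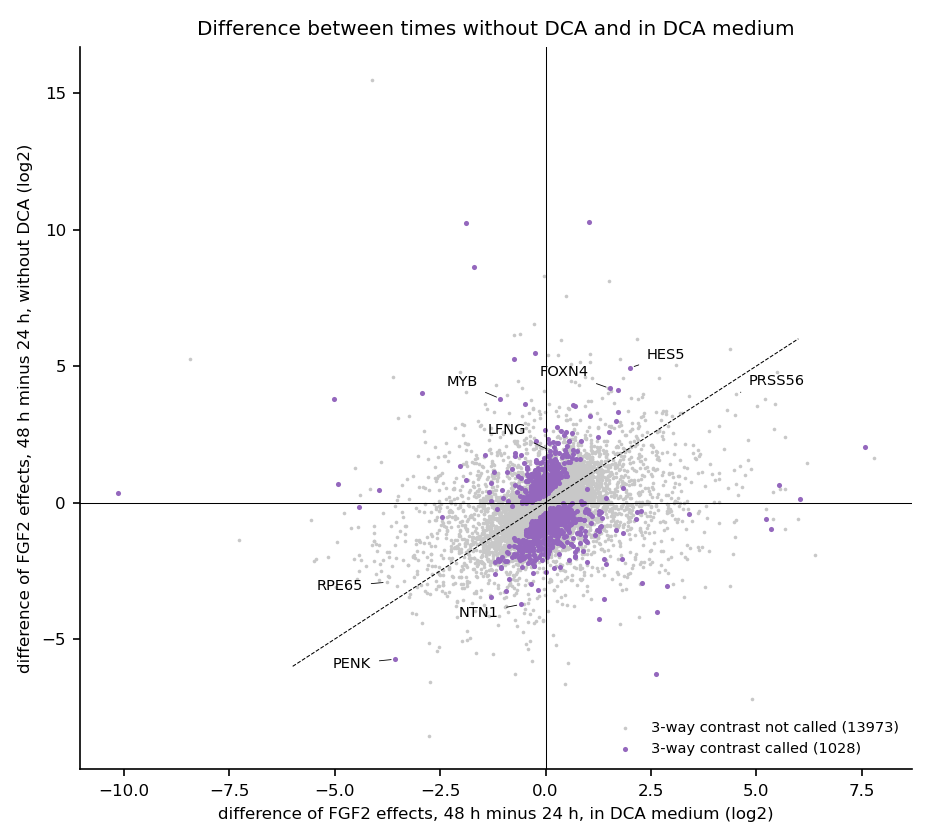
Difference of FGF2 effects, 48 h minus 24 h, without DCA (y axis) against that in DCA medium (x axis), both log2, for the 15001 genes tested. Each point is 1 gene, the 1028 genes whose 2 values differed at a limma adjusted p under 0.05 are purple, and the dashed line marks equal values. HES5, FOXN4, LFNG and MYB lie above that line and NTN1 and PENK below it.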

How the data were processed

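RNA sequencing libraries were made, per the labels' protocols, by the authors from poly(A) RNA with a directional kit, from 100 ng of RNA and with 13 PCR cycles. The deposited signal is a read count per gene divided by a size factor per library. The submitters' processing notes name the build GRCg6a, DESeq2 1.34.0, StringTie 2.1.4 (so reads may be estimates), STAR 2.7.5b and Trim Galore 0.6.4. No source used here gives the strand or counter settings, so overlapping and antisense genes and close paralogs are uncertain. Scaling each column by its smallest step gave whole reads for 100% of values within 0.001 of a read. In 2 columns, 1 of them control replicate 1 at 48 h, that step is so near 1 that recovery could not be checked independently.

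In R 4.3.3, log2(value + 1) of genes with a mean of at least 10 went into limma 3.58.1 (trend) with 8 group means over all 24 libraries and 16 residual degrees of freedom, and Benjamini-Hochberg adjustment within a comparison. The replicate numbers did not pair the samples: of 18 correlations of deviations, from -0.082 to 0.088, 0 were over 0.1. Alternatives included edgeR 4.0.16 and DESeq2 1.42.0 on recovered reads. P-values measure the spread between libraries of pooled explants.

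The members and the 35 lists (1197 genes, 979 tested) were chosen with earlier results of these data known. Some lists share genes, so their counts are not separate results. Examples are SOX10 (RPE and crest lists), DCN (EMT and matrix, and mesenchyme) and COL3A1 (collagen and mesenchyme). Genes were named by a rule. Among genes with a symbol and, over the 12 libraries, a mean of 100 or more, it took the 6 most positive and 6 most negative differences with groups apart and the 5 largest of each class. It added up to 4 called members of each list by adjusted p and a fixed set, at any level. BEST1, BMP6, COL2A1, COL9A3, DCT, FGF10, FGF13, GAPDH, HK2, JAG1, LRAT, NEUROD1, NOG, RDH10, SLC6A15, SOX3, SOX9, SPRY1, SQLE, STMN2, TYRP1 and WNT2B fall outside it and were chosen after their values were seen. Some genes that meet the rule are not reported here.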

Additional observations from a re-analysis of the deposited data

Results flagged for a closer look

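The FGF2 effect differed between 48 and 24 h in 4524 genes by a test of the difference itself, and that difference depended on DCA in 1028. The genes named above that passed the second test (limma adjusted p under 0.05) are given here with the gap, the difference of effects without DCA minus that in DCA medium, on the log2 scale. Many were named for a large difference without DCA, which is a part of the gap. Large gaps of the same sign were therefore favoured by the choice of genes.

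Among Notch, neurogenic and progenitor genes the gap was 2.93 for HES5, 1.56 for HES6, 1.02 for NOTCH1, 1.79 for LFNG, 2.42 for ATOH7, 2.65 for FOXN4, 2.48 for OLIG2, 1.47 for ELAVL4 and 2.27 for NCAM1. It was 2.23 for SOX2, 1.26 for RAX2, 1.56 for SOX9, 4.88 for MYB and 1.18 for MYCN, and -2.16 for JAG1.

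Among genes of cell division it was 1.26 for CCND1, 1.41 for E2F1 and 0.77 for DNMT3B, and among metabolic genes 1.45 for CYP51A1, 1.31 for NSDHL, 1.43 for SQLE, 0.74 for ENO1, 0.48 for PGAM1 and 0.95 for CKB. It was -0.94 for OCA2, -1.08 for HMOX1, -1.12 for EGR1, 0.57 for JUND and -0.90 for DUSP5.

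Among secreted signals, receptors and their targets it was -1.79 for BMP4, -1.31 for BMP6, -2.66 for BMPER, -2.17 for FST, -1.10 for ID2, -1.43 for TGFB2 and -1.42 for TGFBR2. It was 1.21 for FZD3, -1.38 for ALDH1A2, -3.15 for NTN1 and -2.17 for PENK, and -1.70 for SNAI1 and -1.36 for DCN. ADAMTS18 had 1.31 and CD38 1.61. TCF21 had -5.22, a value that depends on the pseudocount because all 3 FGF2 libraries at 48 h are listed at 0.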

How the results depend on the processing

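The number of genes whose FGF2 effect differed between 48 and 24 h held within 1.5 times of 4524 under every change of pseudocount, filter, scaling, variance model or library set tried. It was 4523 with edgeR (4409 shared), 4924 with DESeq2 (4486 shared), 5014 from the 12 libraries alone (4344 shared) and 4465 with the replicate number as a block (4372 shared), although those numbers do not pair the samples. Leaving out replicate 3 of FGF2 at both times, an alternative chosen after their depth was seen, gave 3399.

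A stricter adjusted p of 0.01 gave 2862 genes for the difference (1372 positive, 1490 negative), 1352 for control explants over time, 477 for the difference in DCA medium and 317 for its dependence on DCA, with 637 growing, 141 opposed, 278 transient and 50 waning genes. Requiring at least 2-fold beside an adjusted p under 0.05 gave 1492 (547 positive, 945 negative), 3015 at 48 h, 1483 at 24 h, 1530 for FGF2 and 674 for control explants over time, 448 in DCA medium and 412 for the dependence on DCA, with 853 late, 197 growing, 741 sustained, 28 waning, 197 transient and 24 opposed genes. For the calls of a single comparison both are narrower by construction. The late, sustained and transient classes each need a missing call, so a stricter cut can also move genes into them. Weighting libraries gave 199 waning genes, and the cause was not tested.

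Leaving out 1 library at a time gave 3819 to 4371 genes for the difference (1867 to 2109 positive, 1952 to 2262 negative), 7404 to 8223 at 48 h, 3479 to 4437 at 24 h, 4723 to 5649 for FGF2 and 1744 to 2516 for control explants over time. Classes ran over 1958 to 2619 late, 891 to 1131 growing, 1459 to 1890 sustained, 93 to 137 waning, 400 to 476 transient and 212 to 255 opposed genes. No called value of a named gene changed sign under any alternative, but differences that were not called did. Among others, leaving out 1 library moved that of NOS1 over -1.06 to 0.74, of LRAT over -1.43 to 0.15 and of WNT2B over -0.13 to 0.53. The median difference of retinal cell type factors was -0.37 with a mean of at least 50 required, against 1.18, and that of lens and ectoderm markers, -0.13, was 0.09 with that filter and 0.51 with a mean of at least 1.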
